A study of Mus musculus with 9 samples.

Results

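Expression of 53 genes of DNA replication and of the step from G1 into S phase was followed in mouse primary myoblasts, the proliferating progeny of the satellite cells of skeletal muscle, given a BMP ligand or a BMP antagonist. The 53 were picked by gene symbol from a list of replication factors, nucleotide enzymes, G1/S cyclins and E2F factors, out of 24011 genes with a symbol on the array, and each had 1 probe set. They are read here in 3 groups of 3 arrays: cells given recombinant BMP4 protein at 100 ng/ml, cells given recombinant GREM1 protein at 500 ng/ml, and mock-treated controls. All groups had been grown on collagen in medium with 20% fetal bovine serum and basic FGF at 2.5 ng/µl, were then placed in 2% horse serum, and were lysed 24 h later. Medium low in horse serum is used to start differentiation, and the controls were kept in it too. The strain, age and sex of the mice are not in the labels used here, nor is whether replicates were separate cultures, so p-values measure the spread between these arrays, which may be technical.

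In G1 the origin recognition complex, CDC6 and CDT1 load the MCM helicase onto DNA, a step called licensing, and geminin later blocks CDT1 so that no origin is licensed again. Entry into S phase follows when D-type and E-type cyclins with their kinases release E2F transcription factors from the retinoblastoma protein, and E2F factors switch on most of the genes described here. Myoblasts have to leave this cycle before they fuse into muscle fibres, and BMP signals are known to hold them in the proliferating state.

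Levels are the authors' RMA values on the log2 scale, and a level compares arrays for 1 gene, not genes with each other. All 53 members passed the filter on dim genes, with mean levels over the 9 arrays from 4.18 for Fen1 to 11.18 for Pcna. Differences between groups are log2 values ± SE from 1 limma fit over 17141 genes, and a gene is said to have risen or fallen only where its Benjamini-Hochberg adjusted p, over all those genes, was under 0.05. Array medians ran from 5.00 to 5.12. On the second principal component over all tested genes, with 20.9% of the variance, control replicate 1 lay apart at 31.6. The other arrays lay at -16.5 to 6.12. Calls of members that were lost when control replicate 1 was left out are therefore marked. A call without such a mark can still hang on another array. Those of Dbf4, Dscc1, Chaf1a and Clspn for GREM1 against the controls were lost without control replicate 3, and also without GREM1 replicate 1 or 2. All 7 listed myoblast genes passed the filter, with mean levels from 7.58 for Pax7 to 11.25 for Des. So did the 5 listed genes of differentiating muscle, from 7.17 for Ckm to 12.21 for Tnnt2. Of other cell types, the fibroblast genes Pdgfra, Dcn and Lum, the endothelial genes Kdr, Tek and Emcn, the leukocyte genes Ptprc and Adgre1 and the Schwann cell gene S100b lay below the filter. It was passed by 3 of 6 fibroblast, 2 of 5 endothelial, 3 of 5 leukocyte and 1 of 2 Schwann cell genes. The highest mean levels in these lists were 7.17 for Col3a1, 4.53 for Pecam1, 6.49 for Cd68 and 4.64 for Sox10.

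Genes of several steps of DNA replication were lower with GREM1 at 24 h, and 1 E2F gene was higher. Against the controls 50 of the 53 members lay below 0, with a median difference of -0.36, where the median over all tested genes was -0.0057 and 51.4% of them lay below 0. In the limma fit 11 members fell, as did 2.21% of all tested genes, and 1 rose, as did 2.08%. GREM1 arrays lay wholly below the controls for 31 members (12.7% of all tested genes) and wholly above for 2 (11.3%). The 11 that fell come from 7 of the 9 roles: Cdc6 and Gmnn from licensing, Dbf4 from helicase activation, Pole and Pole2 from the polymerases, Dscc1 and Lig1 from clamp loading and strand joining, Rrm2 and Tyms from nucleotide synthesis, Chaf1a from chromatin assembly and Clspn from the checkpoint. The gene that rose was E2f2. Which single genes passed depended on single arrays. It was 7 members that fell without control replicate 1, 1 without control replicate 3 and 6 without BMP4 replicate 2. Without GREM1 replicate 1 or 2 it was 1, and without BMP4 replicate 3 it was 16. The share of all genes that passed in these settings is not given here, so the counts are not read as particular to the members. The members' median kept between -0.50 and -0.28 with any array left out. In bulk RNA, fewer cells in S phase and less RNA per such cell cannot be told apart. With the replicate number as a block in the limma fit, 28 members fell and 2 rose (1985 of all genes passed, against 735). What the number stands for is not in the labels, so the fit without the block is the one read below. A member that did not pass in it is not shown to be alike in both groups, and may pass with the block.

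**Figure D1:**
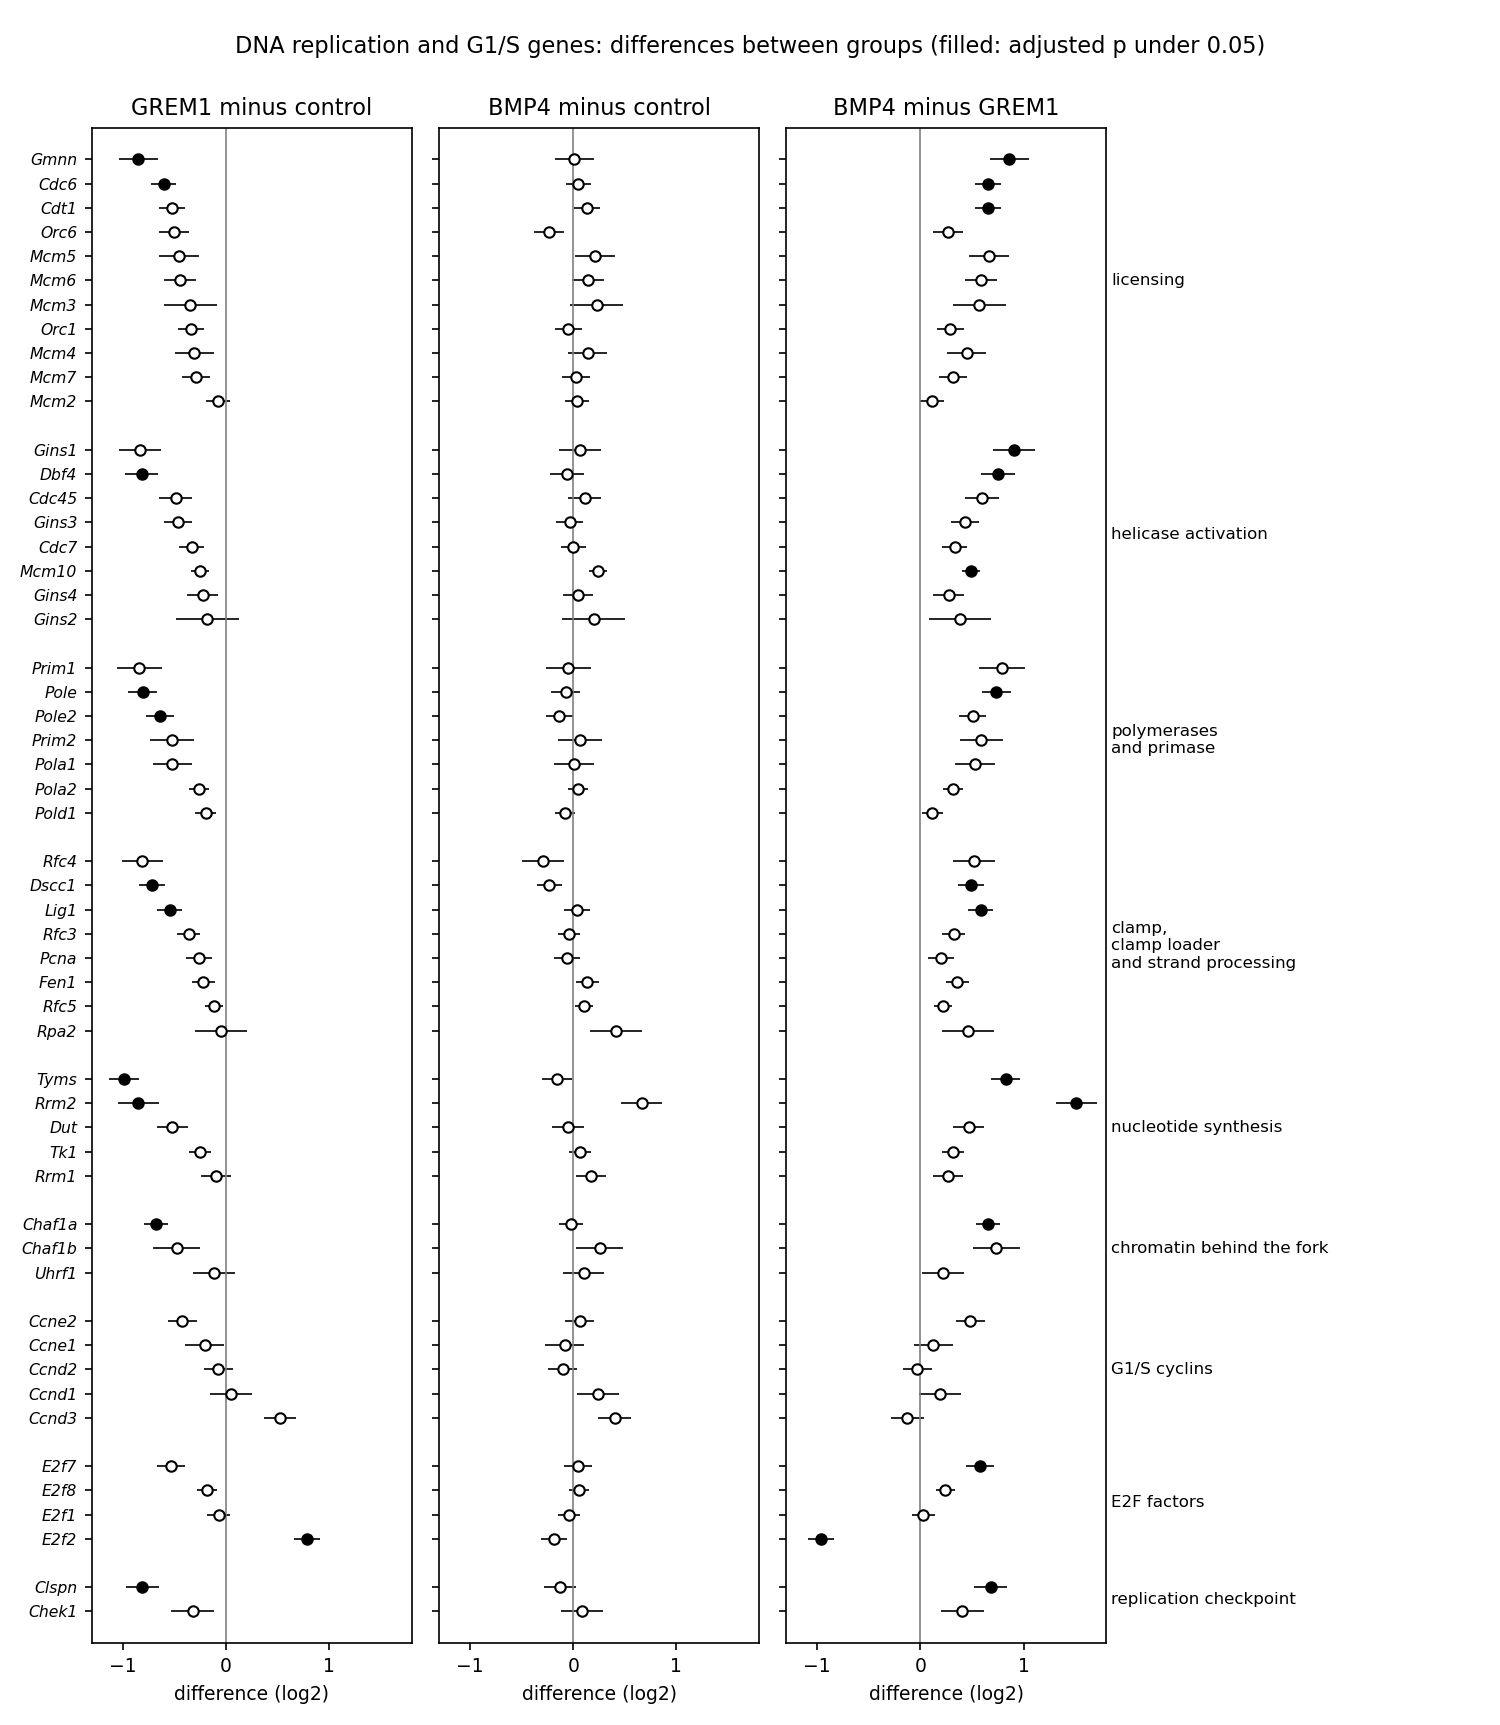
Differences of the 53 members between groups on the log2 scale (points) with their SE (bars), in 3 panels for GREM1 minus control, BMP4 minus control and BMP4 minus GREM1; genes run down the page by role, and filled points have an adjusted p under 0.05. Nearly all points lie left of 0 for GREM1 minus control and right of 0 for BMP4 minus GREM1, E2f2 stands on the opposite side, and no point is filled for BMP4 minus control.

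The promoters of the members were read for the E2F site, since E2F control is what these genes are best known to share. RefSeq windows from 250 bases before to 50 bases after the start of transcription (GRCm38.p6) were at hand for 42 of the 53 members. Any of the 8-base words TTTCCCGC, TTTCGCGC, TTTGCCGC or TTTGGCGC, on either strand, occurred for 17 of these 42 (40.5%), against 2.6% of all 27025 genes in the table and 3.29% of the protein-coding ones. The members holding one were Mcm3, Mcm5, Mcm6, Mcm7, Cdc6, Cdt1, Orc1, Gins3, Pola1, Pold1, Pole2, Rfc3, Lig1, Uhrf1, E2f2, E2f7 and Clspn. Their median difference with GREM1 was -0.46, and that of the 25 without was -0.27, with 4 falls past the test in each set. Of all tested genes 2.21% fell. The word TTTGAA, the CHR element known from mitotic promoters, occurred for 8 of 42 members (19%) and 20.2% of all genes, and CCAAT for 24 (57.1%) and 41.1%. A match of letters is not a bound site.

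Below are 120 bases, 5′ to 3′ along the gene, around the E2F word (in capitals) of the 7 members that hold one and differed between GREM1 and another group, with their chromosome coordinates, shown because E2f2, the gene that rose, carries the same word as Cdt1 and Pole2, which did not.
Cdc6, GRCm38.p6 chr11:98907957-98908076, plus strand: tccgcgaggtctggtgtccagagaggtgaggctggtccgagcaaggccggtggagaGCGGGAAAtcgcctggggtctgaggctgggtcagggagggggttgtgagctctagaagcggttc
Cdt1, GRCm38.p6 chr8:122567945-122568064, plus strand: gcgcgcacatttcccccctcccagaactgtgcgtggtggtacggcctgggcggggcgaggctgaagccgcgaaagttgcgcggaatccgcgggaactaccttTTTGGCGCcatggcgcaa
Pole2, GRCm38.p6 chr12:69228141-69228260, minus strand: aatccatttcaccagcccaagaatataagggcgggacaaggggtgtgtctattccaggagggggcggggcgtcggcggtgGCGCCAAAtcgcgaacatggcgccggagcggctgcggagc
Lig1, GRCm38.p6 chr7:13278756-13278875, plus strand: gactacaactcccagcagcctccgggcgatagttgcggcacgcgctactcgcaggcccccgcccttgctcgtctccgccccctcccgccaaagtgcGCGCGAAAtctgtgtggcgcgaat
E2f2, GRCm38.p6 chr4:136172204-136172323, plus strand: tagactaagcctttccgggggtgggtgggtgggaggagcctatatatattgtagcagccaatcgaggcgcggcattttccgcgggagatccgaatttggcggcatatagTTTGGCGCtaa
E2f7, GRCm38.p6 chr10:110745189-110745308, plus strand: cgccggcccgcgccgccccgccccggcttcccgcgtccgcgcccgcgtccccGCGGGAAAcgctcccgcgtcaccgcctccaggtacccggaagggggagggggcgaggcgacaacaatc
Clspn, GRCm38.p6 chr4:126556910-126557029, plus strand: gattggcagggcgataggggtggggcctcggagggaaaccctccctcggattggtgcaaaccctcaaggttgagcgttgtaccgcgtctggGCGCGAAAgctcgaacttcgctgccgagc
Counted from the start of transcription of the window shown, the leftmost base of the word lies at -138 in Cdc6, 33 in Cdt1, 11 in Pole2, 27 in Lig1, 40 in E2f2, -198 in E2f7 and 22 in Clspn. E2f2 also has a window at another start, which held no such word, and which start these cells use was not tested. Written on the strand of the gene, the word of Cdt1 and E2f2 is TTTGGCGC, while Pole2 holds it on the other strand. Cdc6, Pole2, Lig1 and Clspn fell with GREM1 and E2f2 rose, and they are shown because they hold such a word. Dbf4, Rrm2, Tyms and Chaf1a fell too and held none in their windows. For Gmnn, Pole and Dscc1, which also fell, no window was at hand.

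Licensing genes were lower with GREM1 in all 11 cases by sign, with a median difference of -0.44, and 2 of the 11 fell. Of all tested genes 51.4% lay below 0 and 2.21% fell. Gmnn, which encodes geminin, the inhibitor of CDT1, had levels of 7.13, 7.43 and 7.86 with BMP4, 6.52, 6.56 and 6.75 with GREM1, and 7.57, 7.15 and 7.67 in the controls. Every GREM1 array lay below every other array, and the fall against the controls was 0.85 ± 0.19 (1.81-fold lower, adjusted p = 0.0394, and 0.116 without control replicate 1). Cdc6, the ATPase that loads MCM rings, had levels of 6.21, 6.39 and 6.64 with BMP4, 5.61, 5.78 and 5.89 with GREM1, and 6.45, 6.26 and 6.38 in the controls. Here too the GREM1 arrays were the 3 lowest, and Cdc6 fell by 0.61 ± 0.12 (adjusted p = 0.0268, and 0.0862 without control replicate 1). Cdt1, the partner of CDC6 in loading and the target of geminin, had levels of 6.93, 7.08 and 7.34 with BMP4, 6.50, 6.43 and 6.45 with GREM1, and 6.75, 7.08 and 7.13 in the controls. Its GREM1 arrays were again the lowest, but the difference from the controls, -0.52 ± 0.13, did not pass (adjusted p = 0.0522), though it did without control replicate 1 (adjusted p = 0.0384).

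None of the 6 MCM helicase subunits passed with GREM1, although all lay below 0 (2.21% of all tested genes fell and 51.4% lay below 0). Differences from the controls with GREM1 were -0.46 for Mcm5, -0.44 for Mcm6, -0.35 for Mcm3, -0.31 for Mcm4, -0.29 for Mcm7 and -0.077 for Mcm2 (adjusted p from 0.147 to 0.769). Mcm4, with the highest mean level of the licensing genes, had levels of 8.77, 8.79 and 9.31 with BMP4, 8.32, 8.43 and 8.77 with GREM1, and 8.54, 8.82 and 9.09 in the controls. Its GREM1 and control arrays overlapped. Mcm2 was nearly level across the groups, with an interval for the difference of -0.34 to 0.18 (95%). The origin recognition subunits Orc6 and Orc1 differed by -0.50 and -0.34, with GREM1 arrays below all controls for both, and did not pass (adjusted p = 0.0898 and 0.18).

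For the 8 genes that turn the loaded helicase on, the median difference with GREM1 was -0.40, and 1 fell (2.21% of all tested genes). Dbf4, the regulatory subunit of the CDC7 kinase, which fires origins, had levels of 7.86, 8.003 and 8.36 with BMP4, 7.20, 7.21 and 7.54 with GREM1, and 7.95, 8.06 and 8.40 in the controls. The GREM1 arrays lay apart at the bottom, and Dbf4 fell by 0.82 ± 0.16 (1.76-fold lower, adjusted p = 0.026). The catalytic partner Cdc7 differed by -0.33 ± 0.12 and did not pass (adjusted p = 0.158). Gins1, a subunit of the GINS part of the active helicase, had levels of 6.12, 6.19 and 6.58 with BMP4, 5.09, 5.38 and 5.71 with GREM1, and 6.02, 6.06 and 6.60 in the controls. Its 3 GREM1 arrays were lowest and differed from the controls by -0.83 ± 0.20, just short of the threshold (adjusted p = 0.0528). The other GINS subunits ranged from -0.47 for Gins3 to -0.18 for Gins2, whose controls spread from 6.46 to 7.72. Gins4, the brightest of this role, had levels of 8.65, 8.64 and 8.91 with BMP4, 8.28, 8.52 and 8.57 with GREM1, and 8.42, 8.68 and 8.96 in the controls. Its arrays overlapped between GREM1 and control. Cdc45, which joins GINS and MCM, differed by -0.49 and did not pass (adjusted p = 0.127). Mcm10, which helps the helicase start to unwind, had levels of 6.23, 6.29 and 6.46 with BMP4, 5.92, 5.78 and 5.81 with GREM1, and 6.06, 6.07 and 6.14 in the controls. Its 3 groups did not overlap, with BMP4 on top and GREM1 at the bottom, and the difference of -0.25 ± 0.086 with GREM1 did not pass (adjusted p = 0.141).

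The polymerase and primase genes had a median difference of -0.52 with GREM1. Of the 4 subunits of DNA polymerase epsilon, the leading-strand enzyme, 2 fell (2.21% of all tested genes). Pole, its catalytic subunit, had levels of 7.04, 7.04 and 7.45 with BMP4, 6.47, 6.31 and 6.55 with GREM1, and 7.28, 7.04 and 7.43 in the controls. Pole2, its second subunit, had levels of 5.52, 5.55 and 5.87 with BMP4, 4.94, 5.20 and 5.28 with GREM1, and 5.66, 5.71 and 5.97 in the controls. In both, each GREM1 array lay below all controls, and they fell by 0.81 ± 0.14 (adjusted p = 0.0164) and 0.64 ± 0.13 (adjusted p = 0.0304). Without control replicate 1 neither passed (adjusted p = 0.0557 and 0.058). The small subunits Pole3 and Pole4, from the list of other pathway genes, missed the threshold, Pole3 at -0.26 (adjusted p = 0.268) and Pole4 at -0.50 (adjusted p = 0.159). The primase subunit Prim1, which lays down RNA primers, was at -0.84 ± 0.22 with a wider spread (adjusted p = 0.0651). Prim2, Pola1 and Pola2, the other parts of the primase and polymerase alpha complex, were at -0.52, -0.52 and -0.27 and did not pass. Pola2, the brightest of this role, had levels of 7.15, 7.32 and 7.38 with BMP4, 6.94, 7.10 and 6.87 with GREM1, and 7.19, 7.18 and 7.34 in the controls. Its GREM1 arrays lay below all controls. Pold1, the catalytic subunit of polymerase delta on the lagging strand, showed the smallest difference of the 7, -0.20 ± 0.10 (adjusted p = 0.323).

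Clamp, clamp loader and strand processing genes had a median difference of -0.31 with GREM1, and 2 of 8 fell (2.21% of all tested genes). Dscc1, part of the loader that serves sister chromatid cohesion, had levels of 5.42, 5.60 and 5.76 with BMP4, 5.01, 5.07 and 5.23 with GREM1, and 5.78, 5.65 and 6.03 in the controls. GREM1 arrays were lowest throughout, and the fall was 0.72 ± 0.12 (1.65-fold lower, adjusted p = 0.016). Lig1, the ligase that joins Okazaki fragments, had levels of 8.31, 8.31 and 8.68 with BMP4, 7.68, 7.92 and 7.93 with GREM1, and 8.34, 8.33 and 8.51 in the controls. It fell by 0.55 ± 0.12 (adjusted p = 0.0401, and 0.0874 without control replicate 1), again with no overlap. Pcna, the sliding clamp itself and the brightest member of all, had levels of 11.03, 11.21 and 11.45 with BMP4, 10.97, 10.96 and 11.15 with GREM1, and 11.15, 11.24 and 11.47 in the controls. Its GREM1 and control arrays touched, and the difference of -0.26 ± 0.13 did not pass (adjusted p = 0.29). Of the clamp loader subunits, Rfc4 was at -0.81 ± 0.20 (adjusted p = 0.0548), Rfc3 at -0.36 ± 0.11 (adjusted p = 0.0984) and Rfc5 at -0.11 ± 0.085 (adjusted p = 0.501). Fen1, the flap nuclease, lay near the filter with the same value, 4.16, in 4 of 9 arrays, so its difference of -0.22 says little. Rpa2, of the single-strand binding complex, was at -0.051 with all controls and -0.39 without control replicate 1, which was its lowest array at 6.13.

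Nucleotide synthesis held the largest fall among the members. Tyms, thymidylate synthase, which makes the thymine nucleotide, had levels of 8.07, 8.11 and 8.33 with BMP4, 7.29, 7.21 and 7.53 with GREM1, and 8.42, 8.04 and 8.53 in the controls. The GREM1 arrays lay below every other array, and Tyms fell by 0.99 ± 0.14 (1.98-fold lower, adjusted p = 0.00784), a call kept under each of 17 alternative settings (highest adjusted p = 0.0418). Rrm2, the regulated subunit of ribonucleotide reductase, had levels of 10.28, 10.43 and 10.78 with BMP4, 8.90, 8.90 and 9.13 with GREM1, and 9.41, 9.86 and 10.22 in the controls. The 3 groups did not overlap at all, with BMP4 on top and GREM1 at the bottom, and the fall with GREM1 was 0.85 ± 0.20 (adjusted p = 0.0467). That call was lost in 10 of 17 alternative settings, 7 of them with 1 array left out (adjusted p from 0.00285 to 0.153). Its partner subunit Rrm1, whose protein is long-lived, was at -0.094 ± 0.15 (adjusted p = 0.777), with overlapping arrays. Dut, which keeps uracil out of DNA, was at -0.52 ± 0.15 (adjusted p = 0.0909), and Tk1, the salvage thymidine kinase, at -0.25 ± 0.11 (adjusted p = 0.231).

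Of the genes that rebuild chromatin behind the fork and guard it, 1 of 3 and 1 of 2 fell (2.21% of all tested genes). Chaf1a, the large subunit of the histone chaperone CAF-1, had levels of 7.27, 7.12 and 7.29 with BMP4, 6.57, 6.38 and 6.77 with GREM1, and 7.21, 7.15 and 7.39 in the controls. Clspn, which encodes claspin, the adaptor that lets stalled forks activate CHK1, had levels of 6.41, 6.57 and 6.70 with BMP4, 5.82, 5.65 and 6.16 with GREM1, and 6.47, 6.67 and 6.92 in the controls. Both had GREM1 arrays below all others and fell by 0.68 ± 0.11 (adjusted p = 0.0145) and 0.81 ± 0.16 (adjusted p = 0.0234). Chaf1b, the second CAF-1 subunit, was at -0.48 ± 0.23 (adjusted p = 0.281), and Chek1, the kinase itself, at -0.32 ± 0.21 (adjusted p = 0.425). Uhrf1, which guides maintenance methylation to new DNA, was the brightest of the chromatin genes with levels of 7.63, 7.66 and 8.13 with BMP4, 7.28, 7.66 and 7.81 with GREM1, and 7.51, 7.52 and 8.08 in the controls. Its arrays overlapped across all groups. Chek1 levels were 6.73, 6.76 and 7.14 with BMP4, 6.51, 6.20 and 6.71 with GREM1, and 6.44, 6.74 and 7.21 in the controls, also with overlap between GREM1 and control.

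**Figure D2:**
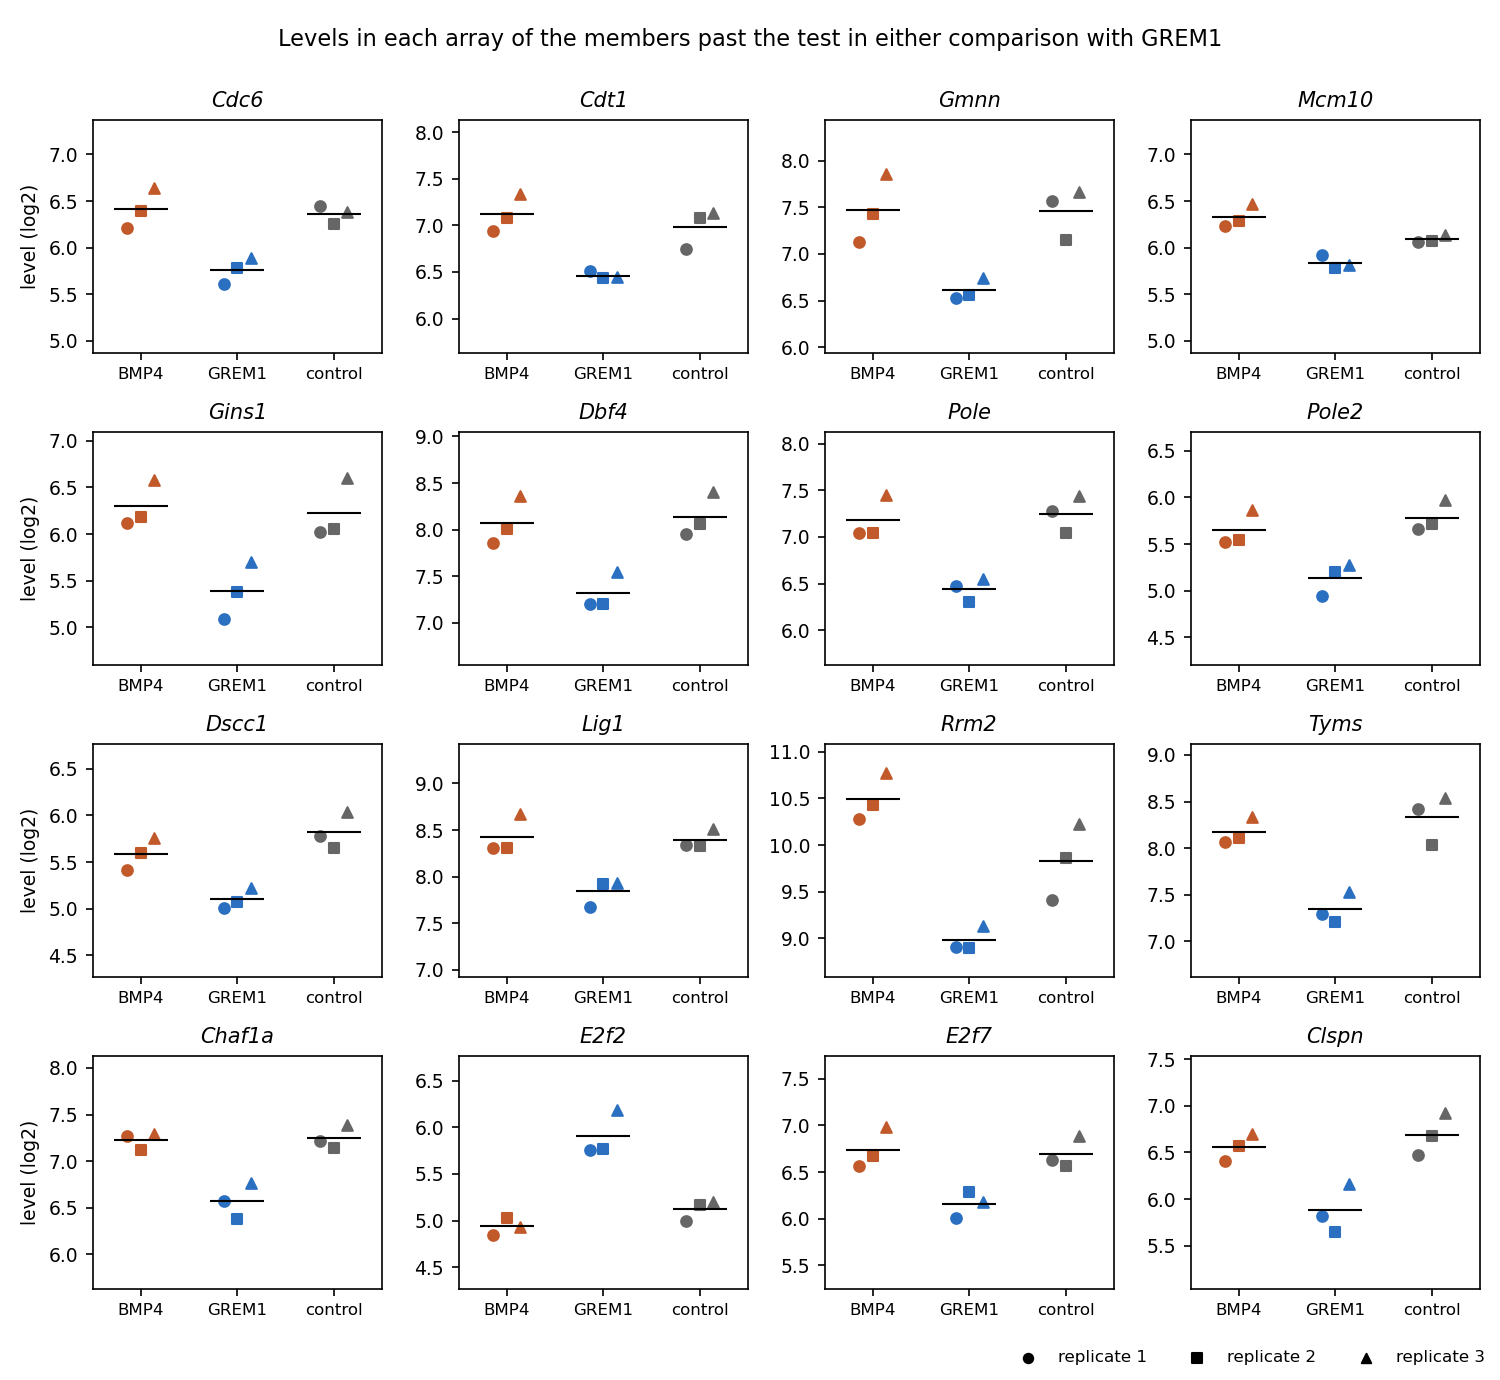
Level on the log2 scale in each array of the 16 members past the test for GREM1 minus control or BMP4 minus GREM1, with groups from left to right BMP4, GREM1 and control, marker shapes for the replicate number and a line at the group mean; every panel spans the same number of log2 units. GREM1 arrays are the lowest 3 in all panels except E2f2, where they are the highest 3.

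No G1/S cyclin passed the limma test in any comparison, and their median difference with GREM1 was -0.075. Before adjustment, at p under 0.05, 1 of the 5 was higher and 1 lower with GREM1 than in the controls (9.19% and 10.8% of all genes), 1 was higher with BMP4 than in the controls (4.03%), and 1 was higher with BMP4 than with GREM1 (10.1%). Ccnd1, cyclin D1, a sensor of growth factors, had levels of 10.60, 10.72 and 11.09 with BMP4, 10.55, 10.55 and 10.75 with GREM1, and 10.10, 10.64 and 10.95 in the controls. The groups overlapped, and the difference with GREM1 was 0.049 ± 0.20 (adjusted p = 0.929), with a sign that turned to -0.023 after a further quantile normalization and to -0.18 without control replicate 1. Ccnd2, cyclin D2, had levels of 9.37, 9.28 and 9.70 with BMP4, 9.39, 9.35 and 9.70 with GREM1, and 9.47, 9.48 and 9.72 in the controls, nearly level in all groups. Ccnd3, cyclin D3, the D-type cyclin that is known to stay up in differentiating muscle, had levels of 7.86, 7.88 and 7.99 with BMP4, 7.97, 8.05 and 8.09 with GREM1, and 7.08, 7.71 and 7.73 in the controls. Both treated groups lay above all controls, by 0.53 ± 0.16 with GREM1 (adjusted p = 0.0949) and 0.40 ± 0.16 with BMP4 (adjusted p = 0.577), against controls that the 2 comparisons share. Without control replicate 1, at 7.08 the lowest, these differences were 0.31 and 0.19.

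Of the E-type cyclins, which drive the last step into S phase, Ccne2 was the one with GREM1 arrays below all controls. Its levels were 7.71, 7.84 and 8.12 with BMP4, 7.24, 7.29 and 7.68 with GREM1, and 7.78, 7.78 and 7.93 in the controls, a difference of -0.42 ± 0.14 with GREM1 (adjusted p = 0.127). Ccne1 had levels of 7.84, 7.92 and 8.40 with BMP4, 7.73, 7.83 and 8.22 with GREM1, and 7.99, 7.99 and 8.43 in the controls, with overlap in all comparisons and a difference of -0.21 ± 0.19 with GREM1 (adjusted p = 0.604).

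Of the 4 E2F factors, 1 rose with GREM1 (2.08% of all tested genes). E2f2, which encodes an activating E2F, had levels of 4.85, 5.03 and 4.94 with BMP4, 5.75, 5.77 and 6.19 with GREM1, and 5.00, 5.17 and 5.20 in the controls. Its GREM1 arrays lay above every other array, and E2f2 rose by 0.78 ± 0.13 (1.72-fold higher, adjusted p = 0.0116), a call that stood under each of 17 alternative settings (highest adjusted p = 0.0439). E2f1, the other activator among the members, had levels of 6.02, 5.83 and 6.21 with BMP4, 6.01, 6.02 and 5.94 with GREM1, and 6.02, 6.21 and 5.95 in the controls. Its groups overlapped, and the 95% interval of the difference with GREM1 was -0.32 to 0.18. E2f7, an atypical E2F that represses the same targets late in S phase, had levels of 6.57, 6.67 and 6.99 with BMP4, 6.01, 6.29 and 6.18 with GREM1, and 6.63, 6.56 and 6.89 in the controls. It was lower in every GREM1 array than in any control, at -0.53 ± 0.13, and did not pass (adjusted p = 0.057). E2f8, the other atypical repressor, had levels of 8.15, 8.003 and 7.88 with BMP4, 7.79, 7.78 and 7.74 with GREM1, and 7.90, 8.09 and 7.88 in the controls. Its difference of -0.19 ± 0.094 did not pass (adjusted p = 0.313).

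**Figure D3:**
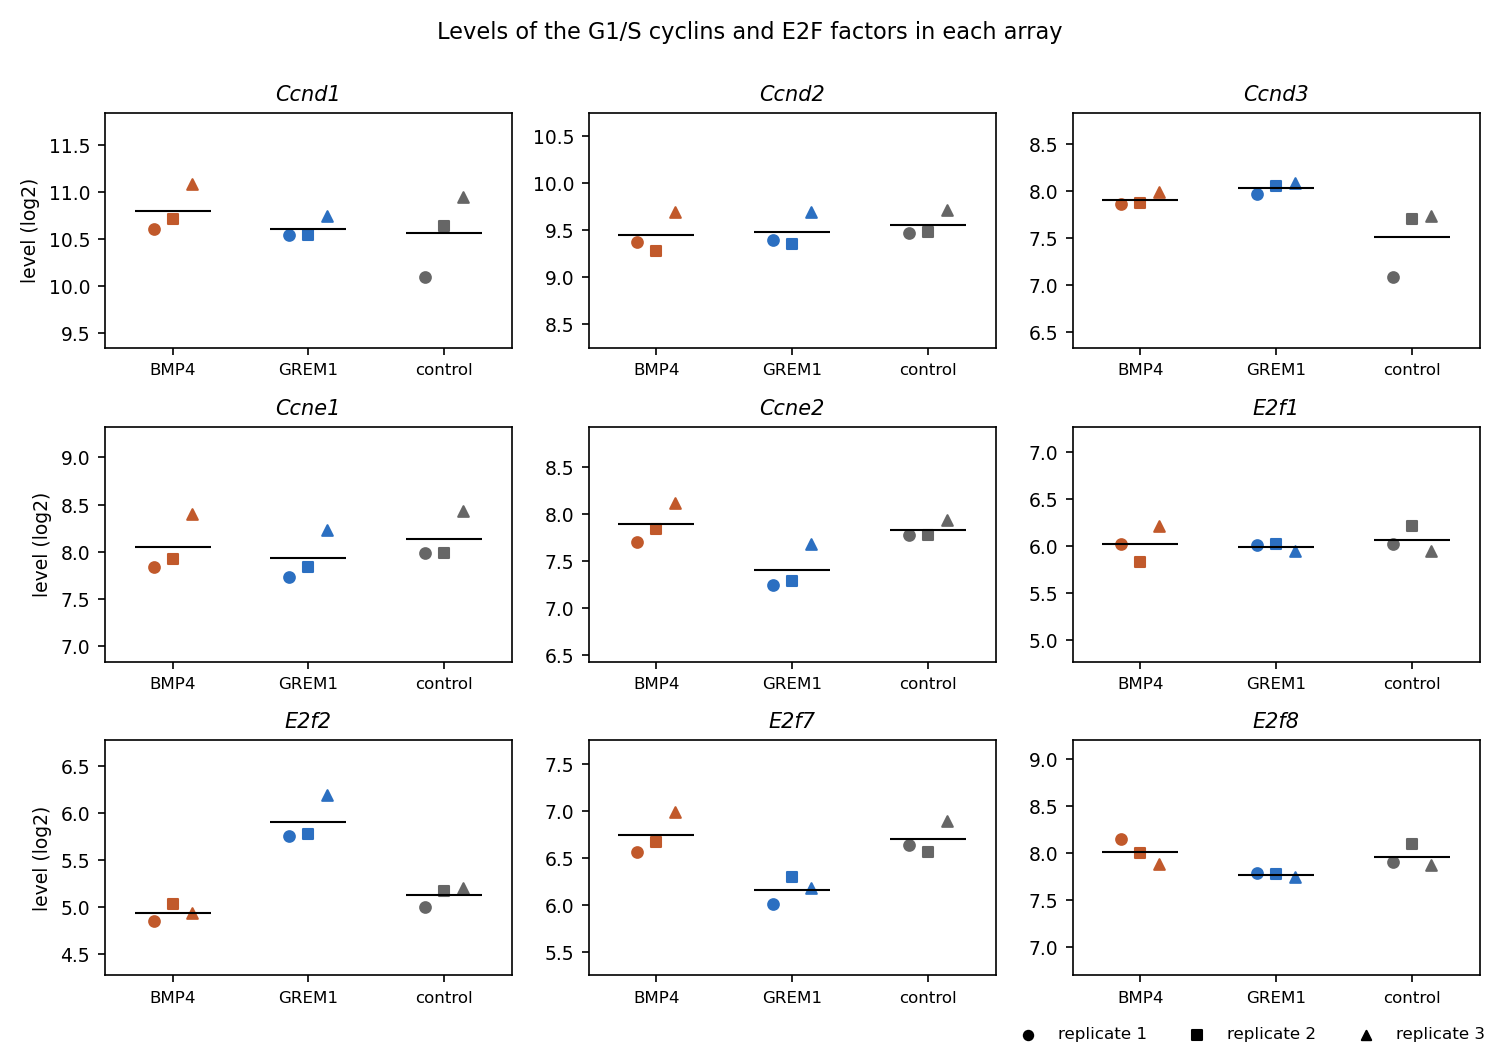
Level on the log2 scale of the 5 G1/S cyclins and 4 E2F factors in each array, drawn like the plot of the 16 members past the test. E2f2 is highest in the GREM1 arrays, Ccnd3 is lowest in the controls with control replicate 1 at 7.08, and E2f1 and Ccnd2 overlap in all groups.

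With BMP4 no member passed the test against the controls. The median difference from the controls was 0.045 over the 53, where that over all tested genes was -0.006, and 32 members lay above 0 and 21 below (48.2% and 51.8% of all tested genes). In this limma fit 0 of 53 passed, where 0.117% of all genes did, and before adjustment, at p under 0.05, 3 were higher and none lower (4.03% and 3.99% of all genes). Those 3, Rrm2, Ccnd3 and Mcm10, were also the 3 whose BMP4 arrays lay wholly above the controls (5.31% of all genes). Rrm2 was at 0.66 ± 0.20 (adjusted p = 0.448), and its difference shrank to 0.45 without control replicate 1. Mcm10 was at 0.24 ± 0.086 (adjusted p = 0.541). At the other end Rfc4 was at -0.29 ± 0.20 and Orc6 at -0.24 ± 0.15 (adjusted p = 0.741 and 0.718). By role the medians ran from -0.048 for the polymerases to 0.10 for the chromatin genes, with 0.05 for licensing, 0.068 for nucleotide synthesis and 0.061 for the cyclins. The sign of the overall median was not stable, at -0.037 without control replicate 1 and -0.063 without BMP4 replicate 3. These data do not show that BMP4 has no effect on the genes: the 95% interval of a member's difference reached a median of 0.32 to either side.

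Set directly against each other, the BMP4 and GREM1 groups differed in more members than either did from the controls. The same order held over all tested genes, with 1106 passing here, 735 for GREM1 minus control and 20 for BMP4 minus control, so it is not particular to the members. With BMP4 14 members were higher than with GREM1 (limma, 3.62% of all tested genes) and 1 was lower (2.83%), with a median difference of 0.46 over the 53, of which 50 lay above 0 (50% of all tested genes). BMP4 arrays lay wholly above GREM1 arrays for 33 members (12.3% of all genes) and wholly below for 1 (12.2%). The largest difference was in Rrm2, 1.51 ± 0.20 or 2.86-fold higher with BMP4 (adjusted p = 0.00191). Tyms, at 0.83 ± 0.14, Chaf1a, at 0.66 ± 0.11, and Mcm10, at 0.49 ± 0.086, followed by adjusted p (0.00933, 0.00941 and 0.00999), and E2f2 was the lower one, at -0.97 ± 0.13 (adjusted p = 0.00179). These 5 calls held under each of 17 alternative settings. The others higher with BMP4 were Gins1 (0.90), Gmnn (0.86), Dbf4 (0.76), Pole (0.74), Clspn (0.68), Cdc6 (0.66), Cdt1 (0.66), Lig1 (0.58), E2f7 (0.58) and Dscc1 (0.49, adjusted p = 0.0499). The call of Dscc1 was lost in 12 of the 17 alternative settings, that without control replicate 1 among them. Cdt1, Mcm10, Gins1 and E2f7 thus passed here and not against the controls, and Pole2 the other way round (0.51 ± 0.13, adjusted p = 0.0559); both comparisons use the same GREM1 arrays. With the replicate number as a block, 31 members were higher with BMP4 and 1 lower (2192 of all genes passed, against 1106). Leaving out BMP4 replicate 2 cut the count of 14 to 8, and leaving out BMP4 replicate 3 to 7. It was 4 when GREM1 replicate 1 was left out and 5 when GREM1 replicate 2 was. The share of all genes that passed with an array left out is not given here.

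Other genes of the pathway, 61 measured of a list of 63, were counted in the same way. Against the controls 9 of the 61 fell with GREM1 and none rose in limma, where 2.21% and 2.08% of all tested genes did, with a median of -0.30. Before adjustment, at p under 0.05, 31 were lower and 2 higher (10.8% and 9.19% of all genes). Fbxo5, which restrains the anaphase-promoting complex so that S-phase proteins can build up, fell by 1.01 (adjusted p = 0.00612), and Ticrr, which recruits CDC45 to the helicase, by 0.89 (adjusted p = 0.00738). The fork protein Donson fell by 0.65, the nuclease Exo1 by 0.56, Cdc25a, the phosphatase that frees CDK2, by 0.48, the helicase Mcm8 by 0.46, the deoxycytidylate deaminase Dctd, which feeds thymidylate synthase, by 0.44, and the transcription factor Myb by 0.40. The ninth, Slbp, the binding protein of histone mRNA, fell by 0.41 and was named after its value was seen. After BMP4 none of the 61 passed in limma (before adjustment, at p under 0.05, 2 lower and none higher, against 3.99% and 4.03% of all genes), with a median of -0.017. Between BMP4 and GREM1 9 were higher with BMP4 and 2 lower (3.62% and 2.83% of all genes). Among the higher ones were the CDK inhibitory kinase Wee1 (1.11), Fbxo5 (0.97), the fork protein Wdhd1 (0.83), Ticrr (0.73), Exo1 (0.73), the topoisomerase Top2a (0.65), Cdc25a (0.52) and the helicase Mcm9 (0.47). The 2 lower were the topoisomerase Top1 (-0.36) and E2f4 (-0.44), an E2F that mostly represses in resting cells, named after its value was seen.

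Some markers of the cells' state differed with GREM1, and the myoblast list was mixed. Mki67, a protein of cycling cells, fell by 0.81 with GREM1 (adjusted p = 0.0317) and was at 0.00078 with BMP4 (adjusted p = 0.999). Of the 7 myoblast markers Mki67 was the 1 that fell (2.21% of all tested genes). Of the same 7, 2 rose (2.08%), the cadherin Cdh15 by 0.91 and the integrin Itga7 by 1.00. Myf5 was at -0.85 (limma, adjusted p = 0.144), Pax7 at -0.20, Myod1 at 0.27 and Des at 0.32, and these did not pass. By sign 4 of the 7 lay above 0 and 3 below. The 5 differentiation markers Myog, Mymk, Myh3, Tnnt2 and Ckm lay above 0 with GREM1 in 5 of 5 cases, where 51.4% of all tested genes lay below 0. Of the 5, Ckm, the muscle creatine kinase, rose by 1.70 (limma, adjusted p = 0.00433), and 2.08% of all tested genes rose. Myog (0.90), Myh3 (0.40), Mymk (0.37) and Tnnt2 (0.31) did not pass (limma, adjusted p from 0.0946 to 0.222). The mean level of the 5 differentiation markers was 10.06 to 10.69 in BMP4 arrays, 11.09 to 11.22 in GREM1 arrays and 10.20 to 10.65 in control arrays. The part of the state of differentiation in the members' differences was not tested. Of the fibroblast genes past the filter, Col1a1, Col3a1 and Thy1, none passed with GREM1 (-0.025, -0.52 and 0.13, of which Col3a1 was lower before adjustment in limma, at p under 0.05). The mean level of the 6 fibroblast genes measured was 4.46 to 4.70, 4.52 to 4.53 and 4.60 to 4.70 in BMP4, GREM1 and control arrays.

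The members also moved together between arrays of 1 group. Replicate 3 was the highest of its group for 50 of 53 members with BMP4, 40 with GREM1 and 46 in the controls, where it was the highest for 35.9%, 35.2% and 33.7% of all tested genes. Relative to the mean of its group, the median member stood at 0.22 in BMP4 replicate 3, 0.14 in GREM1 replicate 3 and 0.20 in control replicate 3. In the arrays numbered 1 it stood at -0.17, -0.11 and -0.13. The gap between arrays of 1 group was thus of the order of the difference between groups, and it ran the same way by number in each group. In replicates 1, 2 and 3 the mean over the members was 7.27, 7.35 and 7.65 with BMP4. It was 6.89, 6.95 and 7.14 with GREM1, and 7.22, 7.33 and 7.58 in the controls. The median within-group SD of a member was 0.20, against 0.14 over all tested genes. What the numbers stand for is not in the labels used here.

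**Figure D4:**
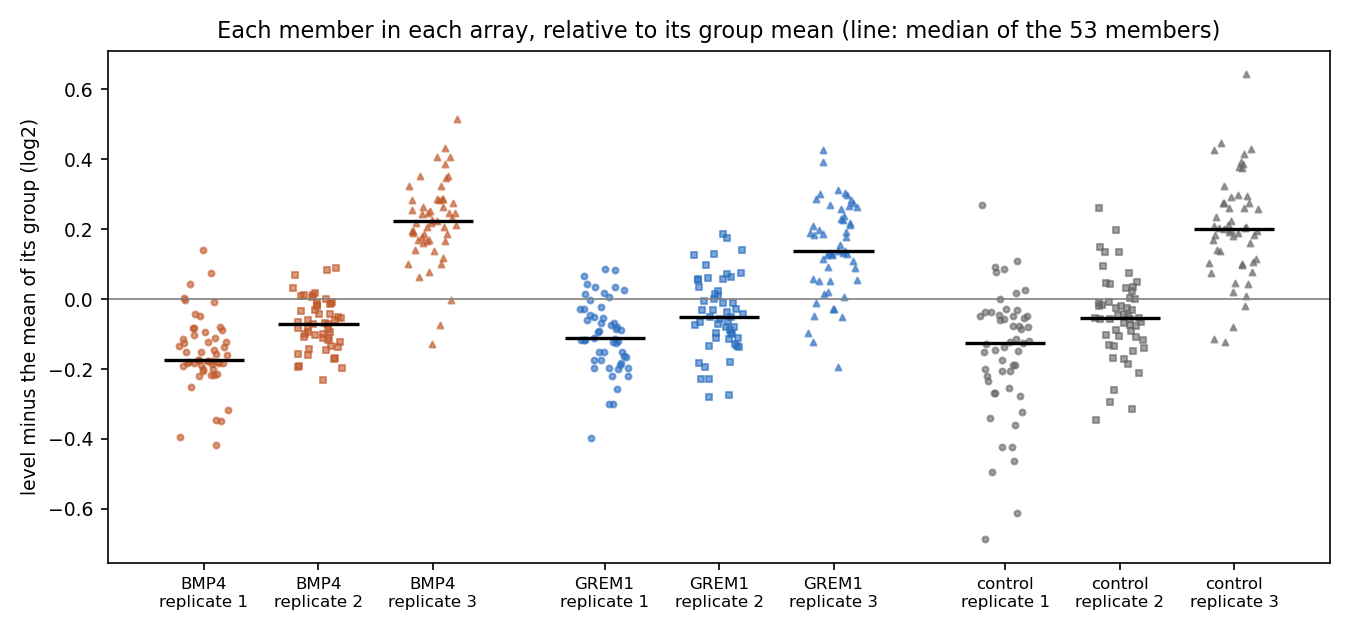
Level of each of the 53 members in each array minus the mean of its own group, on the log2 scale, with a line at the median of the members; groups run BMP4, GREM1 and control. In each group the points of replicate 3 lie mostly above 0, with medians of 0.22, 0.14 and 0.20, and those of replicate 1 mostly below.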

How the data were processed

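Expression was measured on 1 array per sample in 3 BMP4, 3 GREM1 and 3 control samples. Per the submitters' processing notes, the authors used the RMA method of Affymetrix Expression Console to make the deposited log2 values, 1 per probe set and array. Which array model and genome build they used is not given in the sources used here. RMA pulls arrays to 1 distribution, so a shift common to all genes is not seen. A single gene symbol was found for 24015 of the 24973 probe sets and none for 958. The brightest probe set was kept per gene. Genes with at least 3 arrays above the 30th percentile of their array entered the test (17141 genes), run with limma 3.58.1 under R 4.3.3 (lmFit, eBayes, 6 residual and 3.47 prior degrees of freedom), 2-sided, on all 9 arrays in 1 fit, after a test on simulated data. The members and lists were chosen with earlier results of these data known. Values per array are given for members past the test, for the brightest member and the one with the smallest p of each role, and for cyclins and E2F factors; of other pathway genes, those named are among the 4 with the smallest p of their list in the comparison, except Slbp, E2f4, Pole3 and Pole4, named after their values were seen. The number of arrays limits the precision. Alternatives were a replicate block, fitting 2 groups, an intensity trend, 2 scalings, 2 filters, probe set means and leaving out each array.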

Additional observations from a re-analysis of the deposited data

How the results depend on the processing

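Over 17 settings for each of 27 calls, 356 of 459 kept direction and call, 103 kept direction and lost the call, and none turned. Against the controls Tyms and E2f2 kept their calls throughout, and between BMP4 and GREM1 Mcm10, Rrm2, Tyms, Chaf1a and E2f2 did. With the replicate number as a replicate block, 28 members fell and 2 rose with GREM1 against the controls (1985 of all genes passed, against 735), 31 were higher and 1 lower with BMP4 than with GREM1 (2192 of all genes, against 1106), and none passed for BMP4 against the controls (65 of all genes, against 20). Deviations from group means of same-numbered arrays correlated at 0.088 to 0.58 over all tested genes, those of different numbers at -0.47 to 0.23, and GREM1 replicate 2 correlated best with BMP4 replicate 1, at 0.23 (each of the other 8 arrays with one of its own number). All same-numbered pairs were above 0, but 1 was under 0.1 and the labels give no shared origin, so the numbers were not taken as pairs. That choice does not show that same-numbered arrays share nothing, and the fit without the block can miss members. With arrays centred on their medians 7 members fell with GREM1. For this setting and the fits with 1 array left out, which follow, the share of all genes that passed is not given here. Leaving out 1 array gave 1 to 16 members lower and 1 higher with GREM1 than in the controls (median -0.50 to -0.28), 0 either way with BMP4 (median -0.063 to 0.11), and 4 to 18 higher and 1 lower with BMP4 than with GREM1 (median 0.36 to 0.54). With only the 2 groups compared in the fit, 437 of all genes passed for GREM1 and 5 for BMP4 against the controls, and with the filter at the 50th percentile 31 did for BMP4. Fen1 lies near the filter and had 6 distinct values in 9 arrays. Ties were not confined to dim genes: Mcm2, Cdc7, Pole and E2f1 had 7 distinct values each.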
